A study of Mus musculus with 58 samples.

Results

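Cohort F1 and cohort F3 are 2 of the 8 cohorts that the labels of this bulk RNA-seq study of mouse somatosensory cortex name, and both consist of female C57BL/6J mice. Cohort membership was taken from the cohort label alone, which gave 10 libraries for F1 and 14 for F3, 24 of the 58 libraries in all. At an age of 2 to 4 months each mouse of the study underwent 5 procedures, one a day, either closed head injury (5xCHI) or sham injury. After each procedure, 30 min later, it received SB239063 (SB), a small molecule that blocks the p38 MAP kinase, at 20 mg/kg by intraperitoneal injection, or physiological saline as vehicle. F1 held 3 libraries of 5xCHI + SB, 3 of 5xCHI + vehicle, 2 of sham + SB and 2 of sham + vehicle. F3 held 5 libraries of 5xCHI + SB, 5 of 5xCHI + vehicle and 4 of sham + vehicle, and no sham + SB library. All 24 were taken at the chronic time, a term that covers about 18 days and about 34 days, with neither tied to a mouse. The labels say neither what separates one cohort from another nor at which hour of the day tissue was taken, so day, hour, handling and cohort cannot be told apart. The library names number F1 and F3 as separate runs, 13 to 22 for F1, and 35 to 41 with 43 to 49 for F3, so that the order of library preparation, if the numbers follow it, cannot be told apart from the cohort either.

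The mammalian circadian clock is a transcriptional loop. CLOCK, or its paralogue NPAS2, pairs with BMAL1 and activates genes through E-box sequences, among them the PER and CRY repressors that in turn block the pair, and the output factors DBP, TEF and HLF that bind D-box sequences. In the cortex most of these transcripts rise and fall over the day, each with its own phase. Neuronal activity induces a first wave of transcription factor genes such as Fos, Egr1 and Npas4 within minutes and a later set of effector genes for secreted peptides, synaptic scaffolds and feedback inhibitors of kinase signalling, many of them through CREB bound at cAMP response elements (CRE).

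Differences between the cohorts were estimated as F1 minus F3 on the log2 scale, with the 4 combinations of injury and treatment (arms) as a covariate, using edgeR's quasi-likelihood test and Benjamini-Hochberg adjustment over all 9636 genes of the deposited table. A gene is called where its adjusted p was under 0.05. The sham + SB libraries exist in F1 only and do not inform the contrast, which therefore rests on 8 F1 libraries against 14 F3 libraries. Levels are CPM, counts scaled to a common library size with TMM factors, and they are compared between cohorts for 1 gene at a time, never between genes. Of the 9636 genes, 432 were higher in F1 (4.48%) and 363 were lower in F1 (3.77%). The median log2 fold change over all genes was -0.0066, so the background of the comparison sits close to 0. Most differences were small: 44 of the 795 called genes passed 1.5-fold and 5 passed 2-fold. In 64 genes (0.664%) the range of CPM over the F1 libraries did not overlap the range over the F3 libraries, and all 64 were among the called genes.

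Several libraries stood apart from their cohort. Total counts over the listed genes were 30284083 to 49158277 in F1, with a median of 43440364.5, and 28708144 to 44914744 in F3, with a median of 35491503. F3 replicate 4 (5xCHI + SB) and F3 replicate 14 (sham + vehicle) lay far from the rest on the first principal component, which carried 30.5% of the variance. With both left out the comparison called 578 genes higher and 481 lower in F1. The overall counts leaned on single F1 libraries: without F1 replicate 10 they were 276 higher and 199 lower, without F1 replicate 1 the higher count was 286, and without F1 replicate 3 the lower count was 209. Enpp2, a gene of choroid plexus and oligodendrocytes, had 278 to 358 CPM in F1, against 2841 CPM in F3 replicate 11 (sham + vehicle). Enpp2 is the only 1 of 11 listed choroid plexus and ependyma genes in the table, and its cohort difference was not called (adjusted p = 0.648, edgeR). The summed level of 7 measured striatal marker genes split F1: 5 libraries (replicates 3, 4, 8, 9 and 10) lay between 899 and 1132 CPM and the other 5 between 510 and 566 CPM, against 411 to 533 CPM in F3.

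Called clock genes lay in both directions. Of 24 measured members of 3 clock lists, 12 were called lower and 3 called higher in F1, beside 3.77% and 4.48% of all genes, and their median log2 fold change was -0.20. All lists were chosen with earlier results of these data known, so their shares are not an independent test. The summed striatal level differed between the cohorts as well: without the 5 F1 libraries where it was high, 8 clock genes were called lower and 2 higher. In that fit 27 of all 9636 genes were called lower and 79 higher. With the mean log2 striatal level as a covariate 6 clock genes were called lower and 1 higher, beside 24 and 75 of all genes. One of the 12, Rev1, is not a clock regulator in its known role, and without it 11 of 23 were called lower. Of 12 genes of the period, REV-ERB, DEC and D-box activator families with Cry2 and Ciart, 8 were called lower and 0 higher, with a median of -0.40. Of a second list that holds activators and repressors together, 3 of 6 measured members were called higher, Npas2, Nfil3 and Clock, and 1, Cry1, was called lower. The CLOCK partner BMAL1 was not analysed here because its gene is not among the listed genes.

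The largest fall among called clock genes was that of Ciart, whose product represses the CLOCK and BMAL1 pair. Its promoter is shown because it carries 3 copies of the E-box through which that pair acts. The sequence is from RefSeq on GRCm38.p6, chr3:95882179-95882478, minus strand, 250 bases before to 50 bases after the start, with each E-box (letters CACGTG, which reads the same on both strands) in capitals.

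Ciart: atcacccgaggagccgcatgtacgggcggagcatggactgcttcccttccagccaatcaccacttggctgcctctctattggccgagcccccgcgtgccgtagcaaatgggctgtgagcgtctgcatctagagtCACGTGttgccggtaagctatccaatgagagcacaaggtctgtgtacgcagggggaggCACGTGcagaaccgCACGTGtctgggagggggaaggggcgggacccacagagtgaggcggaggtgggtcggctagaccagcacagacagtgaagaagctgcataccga

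The E-boxes begin 116, 58 and 44 bases before the start. Of 32851 mouse promoter windows of this length in the table, 7.15% hold at least one E-box. The windows of Dbp and Npas2 hold neither the E-box, nor the D-box TTANGTAA, which 2.32% of windows hold, nor the CRE core TGACG, which 20.8% hold. No match says only that these letters are not in these windows.

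Ciart ranged from 11.6 to 17.8 CPM in F1, with a median of 13.9, and from 26.0 to 41.5 CPM in F3, with a median of 32.4. Every F1 library was below every F3 library. The log2 fold change was -1.20 ± 0.095 (SE; adjusted p = 5.09e-09, edgeR quasi-likelihood test, lower in 10 of 10 F1 libraries than in any F3 library). Dbp, which encodes the D-box activator that is among the most strongly rhythmic transcripts of many tissues, had 42.3 to 62.5 CPM in F1, with a median of 50.2, against 74.1 to 131 CPM in F3, with a median of 97.5. These ranges did not overlap either, and the log2 fold change was -0.94 ± 0.097 (adjusted p = 3.24e-07).

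The other members of the D-box activator family moved the same way by smaller amounts. Tef had 310 to 363 CPM in F1 and 320 to 506 CPM in F3 (medians 326 and 467 CPM, log2 fold change -0.46 ± 0.060, adjusted p = 8.63e-06). Hlf had 277 to 371 CPM in F1 and 326 to 473 CPM in F3 (medians 328 and 427 CPM, log2 fold change -0.33 ± 0.063, adjusted p = 0.00118). In both genes a single F3 library, replicate 14, reached into the F1 range. Without it the lowest F3 library had 416 CPM of Tef and 375 CPM of Hlf, above the F1 maxima of 363 and 371 CPM.

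Of the period genes Per3 and Per2 were called lower. Per3 ranged from 47.4 to 70.5 CPM in F1 and from 65.1 to 118 CPM in F3, with a log2 fold change of -0.58 ± 0.083 (adjusted p = 4.43e-05). Per2 ranged from 52.0 to 63.8 CPM in F1 and from 39.3 to 168 CPM in F3, a much wider spread in F3, and its log2 fold change was -0.59 ± 0.15 (adjusted p = 0.0159). With the log2 total count of the library as a further covariate Per2 had an adjusted p of 0.0507. Per1, which glucocorticoids and neuronal activity also induce, was not called, with medians of 145 CPM in F1 and 150 CPM in F3 and a log2 fold change of -0.21 ± 0.16 (adjusted p = 0.443).

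Among the further repressors, Bhlhe41 (DEC2), which competes at E-boxes, had 31.4 to 42.5 CPM in F1 and 39.1 to 61.0 CPM in F3, with a log2 fold change of -0.54 ± 0.071 (adjusted p = 1.24e-05). Cry1, a core repressor of the loop, had 16.3 to 22.7 CPM in F1 and 19.4 to 36.6 CPM in F3, with a log2 fold change of -0.60 ± 0.088 (adjusted p = 5.09e-05). As with Tef and Hlf, the overlap in Bhlhe41 and Cry1 came from F3 replicate 14 alone. Without that library 7 of the 24 clock genes had ranges that did not overlap, where 0.799% of all genes did, against 3 of 24 with it. Nr1d2 (REV-ERB beta), a repressor of BMAL1 expression, was lower by a little, -0.25 ± 0.072 (adjusted p = 0.0317), and it lost its call without F1 replicate 1, 2, 3, 4, 6 or 9 or F3 replicate 10 (adjusted p up to 0.0728). Its paralogue Nr1d1 was not called, with medians of 153 CPM in F1 and 133 CPM in F3 and a log2 fold change of 0.06 ± 0.092 (adjusted p = 0.731). Cry2 (-0.12 ± 0.067, adjusted p = 0.261) and Bhlhe40 (0.13 ± 0.11, adjusted p = 0.514) were not called either. Cry2 passed without F3 replicates 4 and 14 (adjusted p = 0.0123) and under limma voom with quality weights (adjusted p = 0.00679).

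Npas2 was the clearest clock gene that was higher in F1, at 62.2 to 80.4 CPM, with a median of 67.3, against 39.6 to 54.3 CPM in F3, with a median of 46.6. The ranges did not overlap and the log2 fold change was 0.52 ± 0.055 (adjusted p = 5.67e-07). Nfil3, which represses through the same D-boxes that DBP activates, had 10.7 to 17.9 CPM in F1 and 7.28 to 13.7 CPM in F3, with a log2 fold change of 0.49 ± 0.11 (adjusted p = 0.00541). Clock itself had 134 to 162 CPM in F1 and 83.4 to 143 CPM in F3, with a log2 fold change of 0.28 ± 0.079 (adjusted p = 0.0295). The call of Clock was lost without F1 replicate 1, 3, 4, 5 or 10 (adjusted p up to 0.0816) and with total count as a covariate (0.0687). Rora (0.15, adjusted p = 0.337) and Rorb (-0.10, adjusted p = 0.730), which activate BMAL1 expression, were not called.

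Of 6 measured members of the third clock list, 3 were called lower and 0 higher in F1, beside 3.77% and 4.48% of all genes, and 2 of 5 were called lower without Rev1. Usp2, a deubiquitinase of clock proteins, had 72.8 to 91.2 CPM in F1 and 90.1 to 122 CPM in F3, with a log2 fold change of -0.44 ± 0.056 (adjusted p = 6.83e-06). Rev1, a translesion DNA polymerase that the list holds, had a log2 fold change of -0.25 ± 0.059 (adjusted p = 0.00939). Csnk1e, a kinase of PER proteins, had one of -0.19 ± 0.059 (adjusted p = 0.0426), a call that was lost when any 1 of 15 of the 24 libraries was left out (adjusted p up to 0.106) or when total count was a covariate (0.103). Cipc and Csnk1d lay at -0.03 and 0.03 and were not called.

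**Figure D1:**
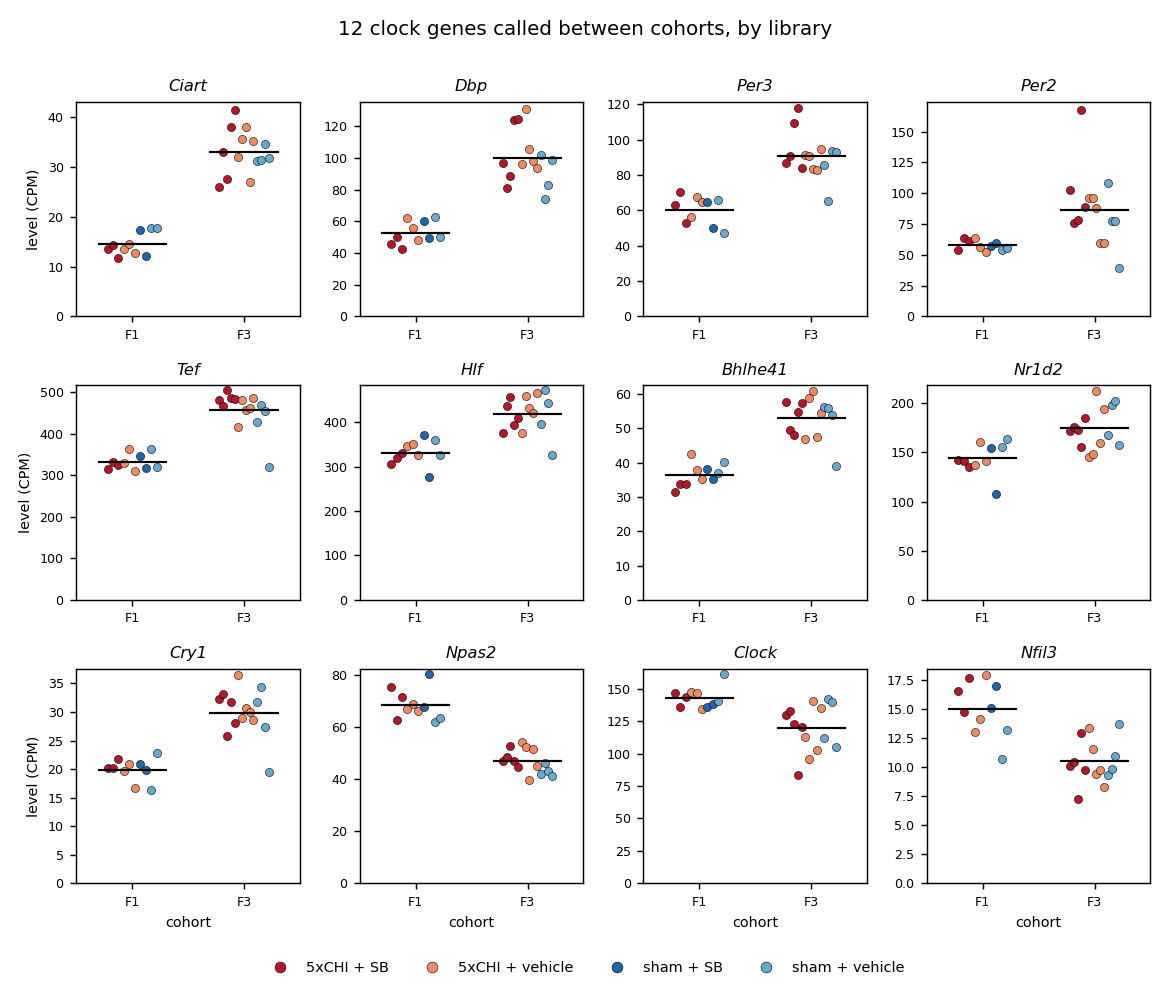
Level in CPM (linear axis from 0) of 12 clock genes called between the cohorts, 1 point per library coloured by arm, F1 (10 libraries) left of F3 (14 libraries), with a line at the cohort mean. Ciart, Dbp and Npas2 show no overlap; the lowest F3 point of Tef, at 320 CPM, belongs to F3 replicate 14.

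Genes that neuronal activity induces were higher in F1 where they were called. Of 40 measured members of both activity lists, 17 were called higher and 0 lower in F1, beside 4.48% and 3.77% of all genes. These lists too were chosen with earlier results of these data known. The median log2 fold change of the 40 was 0.25. Without the 5 F1 libraries of high striatal level, and likewise with the mean log2 striatal level as a covariate, 9 of the 40 were called higher and 0 lower. Of all 9636 genes these 2 fits called 79 and 75 higher, and 27 and 24 lower. In 8 of the 40 the ranges of the cohorts did not overlap, beside 0.664% of all genes. The called genes were mainly effectors: 14 of 27 measured effectors, with a median of 0.30, against 3 of 13 immediate early transcription factors, with a median of 0.04. Whether the 2 lists differ was not tested. Per1, which was not called, is counted both among the effectors and among the clock genes.

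Egr3, a zinc finger transcription factor downstream of EGR1 and neurotrophin signalling, had the smallest p of all 9636 genes. It ranged from 281 to 433 CPM in F1, with a median of 347, and from 145 to 202 CPM in F3, with a median of 175. The lowest F1 library was above the highest F3 library, and the log2 fold change was 1.04 ± 0.066 (adjusted p = 1.11e-10). Klf10 had 42.5 to 62.0 CPM in F1 and 22.1 to 60.0 CPM in F3, with a log2 fold change of 0.66 ± 0.14 (adjusted p = 0.0038), and Ier5 had a log2 fold change of 0.42 ± 0.098 (adjusted p = 0.00712).

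The other 10 members of the same list were not called. Fos had 19.4 to 53.2 CPM in F1 and 7.87 to 62.7 CPM in F3, with medians of 34.6 and 42.8 CPM and a log2 fold change of -0.18 ± 0.25 (adjusted p = 0.698). Npas4 had medians of 23.0 CPM in F1 and 23.3 CPM in F3 and a log2 fold change of -0.25 ± 0.27 (adjusted p = 0.619). Nr4a1 was at 0.04 ± 0.20 (adjusted p = 0.920) and Egr1 at 0.15 ± 0.13 (adjusted p = 0.513). The standard errors of these genes were 0.13 to 0.27, against 0.066 for Egr3, so they were measured far less precisely. Fos, Npas4 and Nr4a1 changed sign between analysis settings.

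Among secreted factors and their processing, the called genes were higher in F1. Nptx2, a pentraxin that clusters AMPA receptors, ranged from 55.7 to 95.1 CPM in F1, with a median of 73.2, and from 31.9 to 51.1 CPM in F3, with a median of 36.0. The ranges did not overlap and the log2 fold change was 0.96 ± 0.093 (adjusted p = 9.86e-08). Inhba, a subunit of activin, had 27.0 to 39.9 CPM in F1 and 9.52 to 35.3 CPM in F3, with a log2 fold change of 0.92 ± 0.16 (adjusted p = 0.000544). The overlap of Inhba came from F3 replicate 14, without which the highest F3 library had 21.8 CPM. Bdnf, the neurotrophin, had 41.9 to 63.5 CPM in F1 and 20.3 to 40.5 CPM in F3, with no overlap and a log2 fold change of 0.72 ± 0.096 (adjusted p = 1.43e-05).

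Scg2, a secretogranin, had 236 to 297 CPM in F1 and 163 to 225 CPM in F3, with no overlap and a log2 fold change of 0.47 ± 0.055 (adjusted p = 2.81e-06). The neuropeptide precursor gene Vgf (0.56 ± 0.099, adjusted p = 0.000594) and the prohormone convertase gene Pcsk1 (0.46 ± 0.086, adjusted p = 0.00109) were called with overlapping ranges. Nrn1 (0.28 ± 0.076, adjusted p = 0.0227) and Nptx1 (0.27 ± 0.074, adjusted p = 0.0232) were called too. Nrn1 lost its call without F1 replicate 1 or 6 (adjusted p up to 0.0617), and Nptx1 without F1 replicate 9 or 10 (up to 0.0904) and with total count as a covariate (0.0797).

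Homer1 encodes postsynaptic scaffold proteins, among them a short form that activity induces, and the gene counts do not separate the forms. It ranged from 379 to 483 CPM in F1, with a median of 407, and from 172 to 345 CPM in F3, with a median of 222. The ranges did not overlap and the log2 fold change was 0.87 ± 0.092 (adjusted p = 4.77e-07). The receptor genes Sorcs3 (0.62 ± 0.078, adjusted p = 6.83e-06) and Lingo1 (0.48 ± 0.076, adjusted p = 0.000157) also had ranges that did not overlap. Arc, an immediate early gene of synaptic scaling, had 202 to 640 CPM in F1 and 62.8 to 542 CPM in F3. Its log2 fold change of 0.50 ± 0.30 was not called (adjusted p = 0.314), and under limma voom with quality weights it was (log2 fold change 1.09, adjusted p = 0.0351).

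Some genes that restrain activity signalling were called higher. Crem, whose ICER products repress CRE-driven genes, had 19.8 to 26.5 CPM in F1 and 10.2 to 16.0 CPM in F3, with no overlap and a log2 fold change of 0.69 ± 0.076 (adjusted p = 8.27e-07). The ERK phosphatase gene Dusp6 had a log2 fold change of 0.45 ± 0.11 (adjusted p = 0.0119; 0.0551 with total count as a covariate) and the Ras pathway inhibitor gene Spred1 one of 0.35 ± 0.088 (adjusted p = 0.0132). The phosphatase gene Dusp1 was at -0.07 ± 0.19 (adjusted p = 0.849), Plk2 at 0.08 ± 0.067 (adjusted p = 0.494) and Rgs2 at 0.02 ± 0.078 (adjusted p = 0.878), none of them called.

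The promoters of Homer1 and Scg2 are shown because both hold the CRE core TGACG more than once. Both sequences are from RefSeq on GRCm38.p6, Homer1 at chr13:93303507-93303806 on the plus strand and Scg2 at chr1:79439977-79440276 on the minus strand, with each core, read on either strand, in capitals. RefSeq lists 2 starts for Homer1, and the first in the table is shown.
Homer1: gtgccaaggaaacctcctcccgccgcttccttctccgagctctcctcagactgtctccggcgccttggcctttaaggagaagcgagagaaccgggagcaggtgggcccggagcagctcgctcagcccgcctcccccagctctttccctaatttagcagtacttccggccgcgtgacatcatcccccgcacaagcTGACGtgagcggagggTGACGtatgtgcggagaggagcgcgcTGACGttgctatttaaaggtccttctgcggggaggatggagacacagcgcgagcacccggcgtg
Scg2: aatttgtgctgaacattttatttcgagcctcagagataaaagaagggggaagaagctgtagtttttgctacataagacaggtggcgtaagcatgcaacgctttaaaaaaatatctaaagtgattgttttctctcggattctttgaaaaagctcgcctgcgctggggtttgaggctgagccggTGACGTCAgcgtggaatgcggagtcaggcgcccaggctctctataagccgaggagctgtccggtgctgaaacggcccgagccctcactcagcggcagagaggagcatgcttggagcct
The Homer1 cores begin 56, 40 and 14 bases before the start. The Scg2 cores begin 68 and 65 bases before the start and overlap on opposite strands, so that together they spell the full CRE TGACGTCA. Usp2, the last of the 6 clock and activity genes scanned, has 1 core that begins 4 bases before the start, and is lower in F1. The 6 were those of smallest p with a promoter entry after genes of 1 chromosome were left out. Genes of smaller p can therefore be missing from the scan. These are matches of letters and not measured binding.

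**Figure D2:**
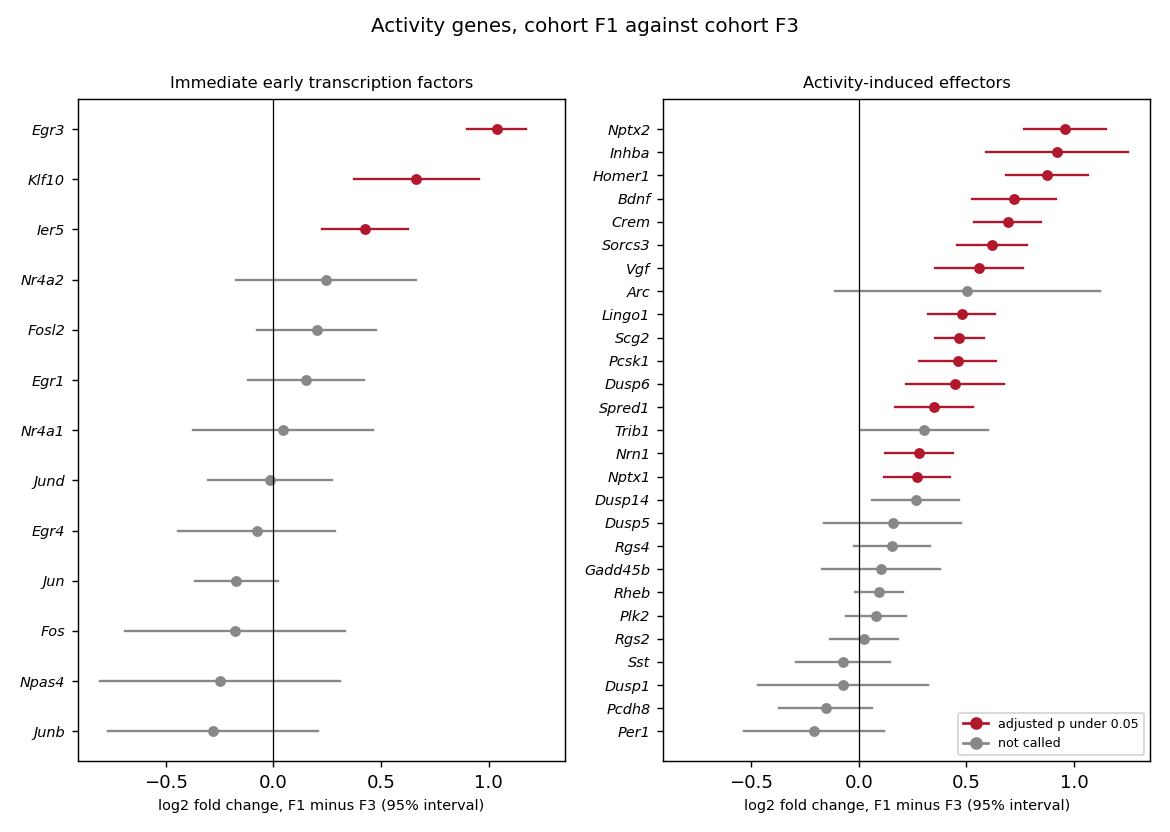
Log2 fold change, F1 minus F3, with its 95% interval for 13 immediate early transcription factor genes (left) and 27 activity-induced effector genes (right); red marks the 17 genes called at adjusted p under 0.05. Every called gene lies to the right of 0, while Fos, Npas4 and Junb lie to the left with intervals that cross 0.

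The cohort difference was also estimated within each shared arm. In a fit of all 24 libraries with 1 group per cohort and arm, where an arm borrows its spread from the others, fewer genes passed: 67 higher and 31 lower in 5xCHI + SB (3 F1 against 5 F3 libraries), 35 higher and 11 lower in 5xCHI + vehicle (3 against 5), and 35 higher and 4 lower in sham + vehicle (2 against 4). With each arm fitted alone the counts were 55 and 19, 49 and 12, and 1 and 0. The arms make up the pooled contrast that chose the genes, so a shared sign is largely fixed by that choice. Ciart had log2 fold changes of -1.34 in 5xCHI + SB, -1.30 in 5xCHI + vehicle and -0.87 in sham + vehicle. Dbp had -1.17, -0.92 and -0.67 in the same order, and Npas2 0.54, 0.47 and 0.54. Egr3 had 1.19, 1.01 and 0.86, Nptx2 1.13, 0.91 and 0.77, and Homer1 0.92, 0.91 and 0.77. For the activity genes Fos, Npas4, Nr4a1 and Arc the arms differed in sign, with Arc at 1.12, 0.32 and -0.19. The test of the difference between arms, a cohort by arm interaction in edgeR over the 3 shared arms, called 0 genes, with 152 genes at an unadjusted p under 0.05, and DESeq2's likelihood ratio test called 0, with 207 at an unadjusted p under 0.05. An interaction that is not called does not show that the arms are alike.

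**Figure D3:**
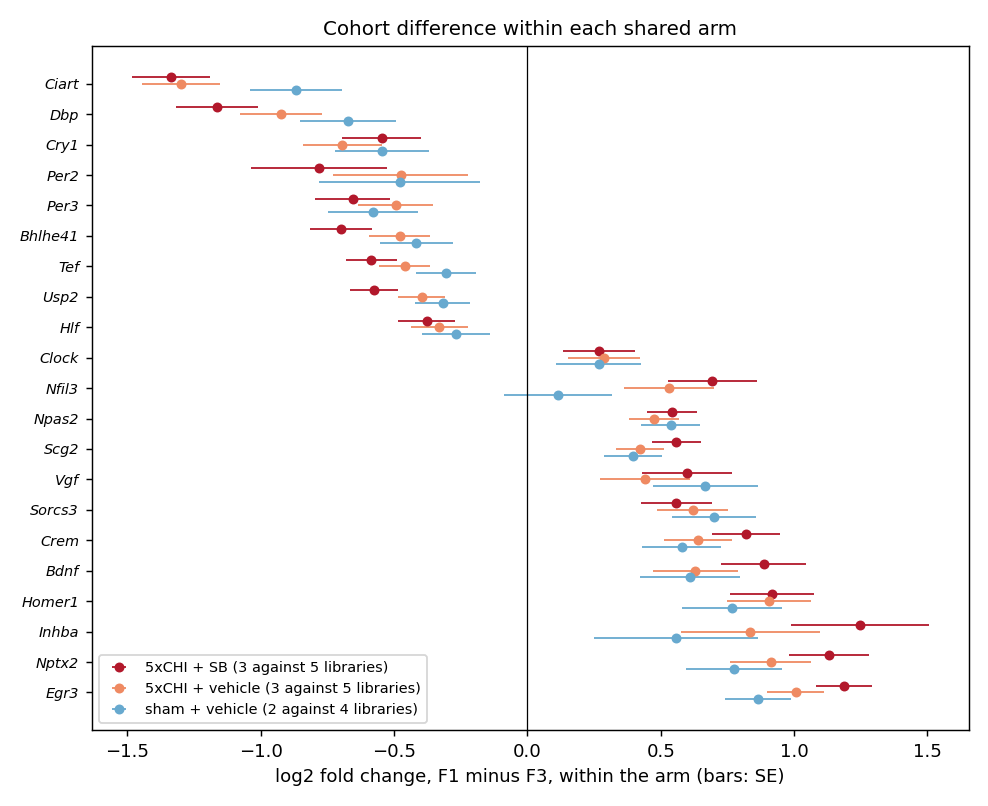
Log2 fold change, F1 minus F3, within each shared arm for 12 clock and 9 activity genes (rows), with bars of 1 SE; colours give the arm and its number of libraries. Each gene keeps its sign in all 3 arms, with Ciart at -1.34, -1.30 and -0.87 and Egr3 at 1.19, 1.01 and 0.86; Nfil3 in sham + vehicle, at 0.12, lies within 1 SE of 0.

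Set among all 8 cohorts, F1 and F3 lay at or near opposite ends for several of these genes, given here as means ± SD without a test. Apart from Fos, the genes were picked for a large difference between F1 and F3, so such a place is largely built in. The means are not adjusted for arm, and the cohorts differ in sex and in their mix of arms. Egr3 averaged 361 ± 48.0 CPM in F1, the highest of the 8, against 174 ± 17.9 CPM in F3, with M1 lower still at 154 ± 12 CPM. Nptx2 averaged 75.8 ± 12 CPM in F1, the highest, against 38.0 ± 6.0 CPM in F3, the lowest. Npas2 averaged 68.6 ± 5.8 CPM in F1, the highest, against 46.8 ± 4.6 CPM in F3, and the other 6 cohorts lay between 46.3 and 53.7 CPM. For the falling genes the end was shared. Ciart averaged 14.5 ± 2.3 CPM in F1 and 13.5 ± 2.7 CPM in F2, against 33.0 ± 4.5 CPM in F3, the highest. Dbp averaged 52.6 ± 7.2 CPM in F1 and 39.9 ± 6.2 CPM in F2, against 99.8 ± 17 CPM in F3 and 104 ± 11 CPM in M1. Fos kept another order, with 35.3 ± 12 CPM in F1 and 41.3 ± 15 CPM in F3, while F2 had 84.0 ± 25 CPM.

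**Figure D4:**
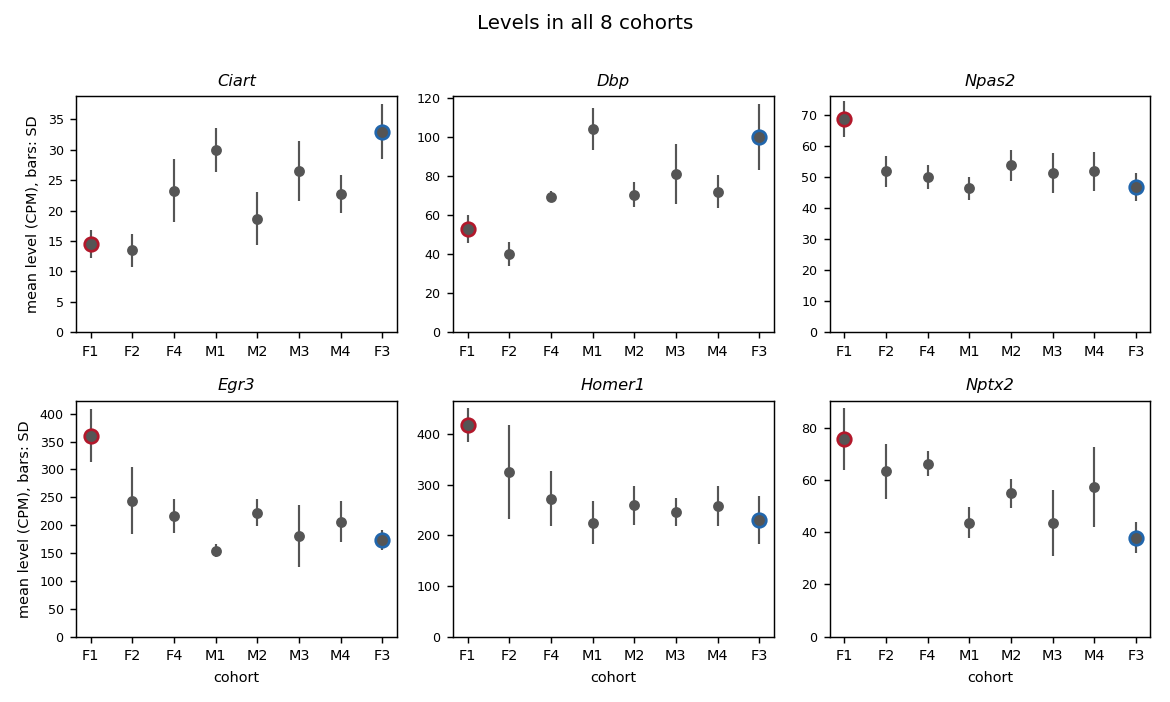
Mean level in CPM (linear axis from 0) of 6 genes in the 8 cohorts, with bars of 1 SD over libraries. F1 is the larger red point at the left end and F3 the larger blue point at the right end. F1 is the highest for Npas2, Egr3, Homer1 and Nptx2, and F3 the highest for Ciart.

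The largest differences in each direction were taken by rule among called genes of 1 sign in all 3 arms. On the higher side they included Rgs9, Maml3, Egr3, Mdga1, Pde10a, Nptx2, Inhba, Cdkn1a, Ccnd1, Homer1 and Pde7b. Maml3, a Notch co-activator, ranged from 19.0 to 29.9 CPM in F1 and from 7.63 to 15.3 CPM in F3, with a log2 fold change of 1.16 ± 0.10 (adjusted p = 4.36e-08). Mdga1, a synaptic adhesion modulator, ranged from 25.0 to 40.6 CPM in F1 and from 10.0 to 24.0 CPM in F3 (1.03 ± 0.099, adjusted p = 9.86e-08). Ccnd1, cyclin D1, ranged from 53.2 to 66.6 CPM in F1 and from 25.2 to 42.5 CPM in F3 (0.88 ± 0.067, adjusted p = 2.68e-09). None of these 3 genes had overlapping ranges. Cdkn1a, the p21 cell cycle inhibitor, was higher with overlap (0.89 ± 0.097, adjusted p = 7.23e-07).

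Those on the lower side included Ciart, Dbp, Pla2g4e, Mthfd1l, Amy1, Slc16a11, Cpne7, Spint2, Hook2, Kirrel2 and Cry1. Pla2g4e, a cytosolic phospholipase, had 6.32 to 12.3 CPM in F1 and 13.5 to 32.1 CPM in F3, with no overlap and a log2 fold change of -0.94 ± 0.13 (adjusted p = 1.50e-05). Mthfd1l, a mitochondrial folate enzyme, had 10.9 to 16.8 CPM in F1 and 11.9 to 30.3 CPM in F3 (-0.79 ± 0.12, adjusted p = 4.89e-05). Amy1, an amylase with near-identical relatives that can share reads, is uncertain at -0.76 ± 0.17 (adjusted p = 0.00645). Spint2 (-0.72 ± 0.21, adjusted p = 0.0328) lost its call without F1 replicate 1, 2, 4, 9 or 10 or F3 replicate 4 or 9 (up to 0.0815), and Slc16a11 (-0.76 ± 0.20, adjusted p = 0.0177) without F1 replicate 10 (0.0519). With total count as a covariate Amy1, Slc16a11, Cpne7, Spint2 and Hook2 were no longer called (adjusted p 0.0573 to 0.104).

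Some chaperone genes were higher in F1 and cold-responsive Rbm3 was lower. Of 15 measured heat shock and chaperone genes 6 were called higher and 0 lower, beside 4.48% and 3.77% of all genes, 9 were not called, and the median was 0.12. Hspa5, the chaperone of the endoplasmic reticulum, had 322 to 438 CPM in F1 and 232 to 343 CPM in F3, with a log2 fold change of 0.57 ± 0.072 (adjusted p = 6.83e-06). Hsph1 had 385 to 508 CPM in F1 and 302 to 374 CPM in F3, with no overlap (0.37 ± 0.052, adjusted p = 2.32e-05), and Hspa8 was at 0.33 ± 0.059 (adjusted p = 0.00064). Rbm3, an RNA-binding protein that rises with cooling and follows body temperature rhythms, had 53.4 to 90.2 CPM in F1 and 84.6 to 134 CPM in F3 (-0.50 ± 0.094, adjusted p = 0.00111). In the list of rhythmic and temperature-sensitive genes, which shares Hspa5, Hsph1, Hspa8 and Rbm3 with other lists, 3 of 15 were called in each direction.

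Several metabolic and RNA-processing lists held called genes on the lower side. Of 15 measured genes of cholesterol synthesis and uptake 5 were called lower and 0 higher in F1, with a median of -0.07, where 3.77% of all genes were called lower and 4.48% higher. Insig1, a sterol sensor, had 54.2 to 71.0 CPM in F1 and 74.1 to 96.9 CPM in F3, with no overlap (-0.38 ± 0.049, adjusted p = 6.83e-06). The squalene synthase gene Fdft1 was at -0.19 ± 0.046 (adjusted p = 0.00865). Of 28 splicing and RNA-binding regulators 5 were called lower and 0 higher, with a median of -0.15, among them Rbm3 and Hnrnpdl (-0.28 ± 0.055, adjusted p = 0.00194). Of 11 nuclear-retained noncoding RNAs 2 were called lower, Kcnq1ot1 and Miat, and each lost its call without any 1 of at least 12 of the 24 libraries (adjusted p up to 0.113 for Kcnq1ot1 and 0.129 for Miat). Of 15 glucocorticoid response genes 1 was called higher, Cdkn1a, and 3 lower, with a median of -0.19. The 3 lower calls did not hold with single libraries left out: Nfkbia lost its call without F1 replicate 1, 2, 9 or 10, Mertk in 10 of 24 such fits and Tsc22d3 in 13 of 24 (adjusted p up to 0.0649, 0.0771 and 0.0834).

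Markers of cell types and neighbouring tissue were set beside these results. In bulk tissue fewer cells of a type and less RNA per cell cannot be told apart. No gene was called among 12 upper cortical layer, 13 inhibitory neuron, 15 astrocyte, 13 homeostatic microglia, 16 myelin and oligodendrocyte, 9 oligodendrocyte precursor, 4 hippocampal and 6 thalamic genes measured, nor among 46 cytosolic ribosomal protein and 39 oxidative phosphorylation genes. Signs still leaned to 1 side in some of these lists. Above 0 lay 13 of 16 myelin and oligodendrocyte, 10 of 13 microglia and 11 of 13 inhibitory neuron genes. Below 0 lay 36 of 46 ribosomal protein and 29 of 39 oxidative phosphorylation genes. Medians of the lists just named lay between -0.054 and 0.093, and the other lists were nearer an even split. These leans were not tested. The summed level of the upper layer list was 2175 to 2484 CPM in F1 and 1917 to 3180 CPM in F3. Every listed gene has counts in every library, because genes low in any group are missing. The presence of cortical layer genes therefore cannot test which tissue was taken. Set against 3.77% of all genes called lower and 4.48% called higher, other lists held a few calls. Of 13 endothelial genes 2 were called lower, Itm2a, which lost its call without F1 replicate 1, 3 or 10 (adjusted p up to 0.0847), and Abcb1a, which lost it in 17 of 24 fits with 1 library left out (up to 0.113). Of 4 mural cell and fibroblast genes 1 was called lower, Col1a2 (-0.45 ± 0.12, adjusted p = 0.0213, lost without F1 replicate 1, 6 or 10, up to 0.0596). None of the 5 listed blood genes is in the table. Of 13 deep layer genes 3 were called higher and 1 lower: Syt6, a layer 6 marker, had 21.7 to 37.1 CPM in F1 and 12.2 to 24.1 CPM in F3 (0.68 ± 0.13, adjusted p = 0.00105), and Rprm was at -0.50 ± 0.12 (adjusted p = 0.00712). Tle4, another deep layer gene (0.25 ± 0.073, adjusted p = 0.0328), lost its call without F1 replicate 1, 3, 4, 5, 9 or 10 (up to 0.124).

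Of 7 measured striatal genes, which mark the tissue that lies under the cortex, 6 were called higher and 0 lower in F1, beside 4.48% and 3.77% of all genes, with a median of 0.64. Rgs9, a striatal regulator of G protein signalling, ranged from 12.7 to 52.0 CPM in F1, with a median of 26.6, and from 8.36 to 17.9 CPM in F3, with a median of 12.5 (1.26 ± 0.24, adjusted p = 0.00173). Pde10a, a phosphodiesterase of medium spiny neurons, ranged from 106 to 232 CPM in F1 and from 61.1 to 120 CPM in F3 (0.98 ± 0.13, adjusted p = 1.46e-05). Adcy5 (0.56 ± 0.11, adjusted p = 0.00132) and Rasd2 (0.48 ± 0.11, adjusted p = 0.00564) were called too. The defining dopamine receptor and adenosine receptor genes Drd1, Drd2 and Adora2a are not among the listed genes and were not analysed here. Bcl11b, which deep layers and striatum share, was called at 0.35 ± 0.087 (adjusted p = 0.0132), and lost its call without F1 replicate 10 (0.0582).

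Without the 5 F1 libraries of high striatal level the comparison called 79 genes higher and 27 lower, 106 in all against 795. Of the 106, 105 were among the 795. The 5 include replicates 9 and 10, the only sham + vehicle libraries of F1. The fit thus rests on 4 F1 libraries of the 5xCHI arms. Their summed striatal level was 510 to 553 CPM, against 411 to 533 CPM in F3, with a median of 468 CPM. The striatal difference was thus smaller in this fit, but not removed. Of the clock genes 2 were then called higher, Npas2 and Nfil3, and 8 lower, Ciart, Dbp, Cry1, Tef, Bhlhe41, Per3, Hlf and Usp2. Of the activity genes 9 were called higher and 0 lower. Ciart was at -1.28, Dbp at -1.07, Npas2 at 0.50, Egr3 at 1.09, Nptx2 at 1.00 and Homer1 at 0.89. Except for Npas2 (0.54), these genes had their smallest within-arm difference in sham + vehicle, the arm now lost. It was -0.87 for Ciart, -0.67 for Dbp, 0.86 for Egr3, and 0.77 for Nptx2 and Homer1. The values are therefore not like for like with those of all libraries. With the mean log2 striatal level as a covariate 75 genes were called higher and 24 lower, and the clock genes called were Npas2 on the higher side and Ciart, Dbp, Cry1, Tef, Bhlhe41 and Usp2 on the lower. The activity genes called were Egr3, Nptx2, Inhba, Homer1, Crem, Scg2, Sorcs3, Bdnf and Vgf, all higher. Maml3, Mdga1, Cdkn1a, Ccnd1, Hspa5 and Hsph1 stayed called as higher and Pla2g4e, Mthfd1l, Insig1 and Fdft1 as lower, while Hspa8, Rbm3, Hnrnpdl, Syt6, Rprm, Hook2 and Kirrel2 were among those no longer called. Rgs9 then lay at -0.07 and Pde10a was no longer called, but both belong to the list from which the covariate is built. The part of striatal RNA in the genes that lost their call in these fits was not tested.

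Library quality measures were compared by exact permutation of the cohort label within arm, two-sided, over 47040 arrangements and 5 measures. The sham + SB libraries, present in F1 only, were left out of the tests and of the differences within arms. The means and SDs below include them. The total count averaged 42140488 ± 6311909 in F1 and 36142645 ± 5300914 in F3 (SD, n = 10 and n = 14), a difference of 5187835 within arms (exact permutation p = 0.0729, adjusted p = 0.182). The TMM factor, which scales for the composition of a library, averaged 0.982 ± 0.0112 in F1 and 1.00 ± 0.0176 in F3, a difference of -0.0169 within arms (exact permutation p = 0.0172, adjusted p = 0.0862). The 50 most abundant genes took 10.05 ± 0.130% of counts in F1 and 10.05 ± 0.214% in F3 (exact permutation, adjusted p = 0.780). The slope of a library's levels on transcript length averaged 0.0107 ± 0.0260 in F1 and -0.00767 ± 0.0783 in F3 (exact permutation, adjusted p = 0.699). The lowest slope, -0.208, belonged to F3 replicate 14 (sham + vehicle), which also had the highest TMM factor, 1.05. None of the 5 measures, with the slope on GC content as the fifth, passed the adjusted threshold, which does not show that the cohorts are alike in them. With log2 total count as a covariate 279 genes were called higher and 189 lower, of which 450 were among the 795.

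**Figure D5:**
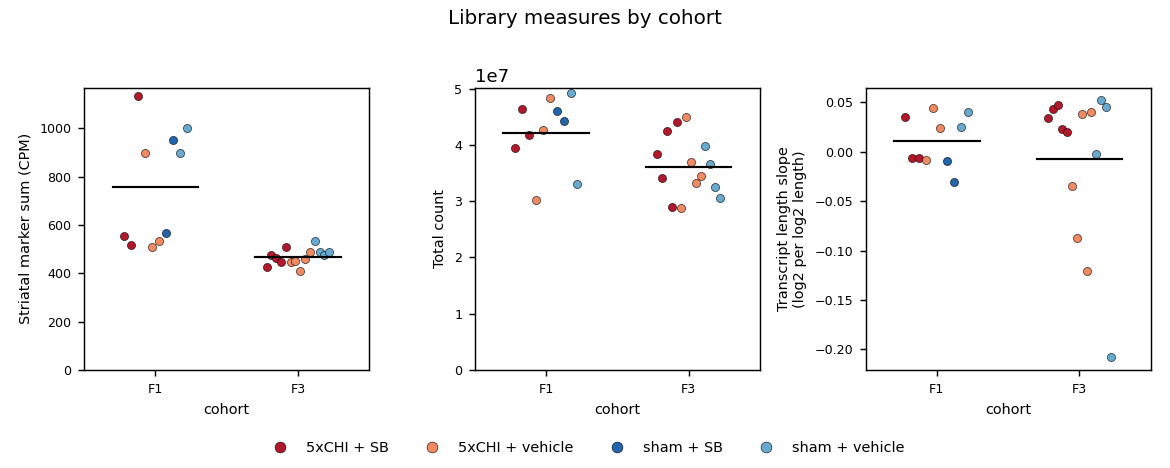
Per library, coloured by arm, F1 left of F3: the summed CPM of 7 striatal marker genes, the total count (both from 0), and the slope of log2 level on log2 transcript length, with a line at the cohort mean. The 5 F1 libraries at 899 to 1132 CPM stand above all F3 libraries, which end at 533 CPM, while total counts and slopes overlap.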

How the data were processed

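Polyadenylated RNA of somatosensory cortex was sequenced from directional libraries, per the labels' protocols. The authors deposited 1 table of raw read counts per gene for 9636 genes and 58 libraries. The submitters' processing notes name the tools STAR, featureCounts and DESeq2 and the build GRCm39 (mm39), without versions or settings. Annotation and strand setting are likewise not given in the sources used here, so near-identical copies and overlapping or antisense genes may share counts. The smallest count of any gene in any library is 101, so genes low in any group are missing from the table, and totals per library cover listed genes only.

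Groups follow the cohort label, replicates are numbered in accession order within a cohort, and arms follow the labelled conditions. Counts of the 24 F1 and F3 libraries were tested with edgeR 4.0.16 in R 4.3.3 (TMM, robust quasi-likelihood, 5 coefficients, 19 residual degrees of freedom, two-sided, Benjamini-Hochberg at 0.05); filterByExpr removed 0 genes. Levels are CPM with TMM factors over all 58 libraries. The biological coefficient of variation was 0.127, so the spread between libraries outweighs counting error at these depths. The labels do not say that libraries come from separate mice, so p-values measure the spread between these samples. No pair of libraries of 1 cohort and arm agreed within sampling noise (their chi-square was at least 9.83 per degree of freedom).

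The text names the 12 largest called log2 fold changes per direction with 1 sign in all 3 shared arms, any clock or activity gene, and up to 4 genes of smallest p of each other list; a few of these are not reported here. The members and lists were chosen with earlier results of these data known. Alternatives used DESeq2 1.42.0 and limma 3.58.1, other normalizations, filters, samples and covariates. Transcript lengths and GC contents were matched by symbol for 9550 genes from a GRCm38 annotation, used for the length slope and the GC slope only. Promoters came from RefSeq on GRCm38.p6, matched by symbol for 49 of 63 clock and activity genes. The fits and the permutation test were checked on simulated data.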

Additional observations from a re-analysis of the deposited data

Results flagged for a closer look

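In 4 of the 87 values examined in F1, the 10 libraries of the cohort held 1 that lay apart from the other 9 by Dixon's criterion. Chance flags about 1 in 20 such groups. Clock had 162 CPM in F1 replicate 10, a sham + vehicle library, where the other F1 libraries had 134 to 148 CPM. Nr1d2 had 108 CPM in F1 replicate 8, a sham + SB library, where the others had 135 to 163 CPM. Lingo1 had 627 CPM in the same library, where the others had 403 to 508 CPM. Tsc22d3, a glucocorticoid-induced gene, had 102 CPM in F1 replicate 7, also sham + SB, where the others had 75.5 to 87.7 CPM. The sham + SB libraries do not inform the cohort contrast. Without F1 replicate 10 Clock was no longer called.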

How the results depend on the processing

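No paired analysis was possible because within an arm no replicate number of the titles occurs in both cohorts. Counts of genes higher and lower in F1 were 1014 and 884 under limma voom with quality weights, 547 and 601 with all 58 libraries, 600 and 660 without the arm covariate, and 279 and 189 with log2 total count as covariate. They were 55 and 19 in 5xCHI + SB alone, 49 and 12 in 5xCHI + vehicle alone, and 1 and 0 in sham + vehicle alone, which have fewer samples. They were 79 and 27 without the 5 F1 libraries of high striatal level, which include all sham + vehicle libraries of F1. With the mean log2 striatal level as covariate they were 75 and 24. Both alternatives were added after seeing the data. Of the 24 clock genes, 1 was called higher and 6 lower in 5xCHI + SB alone and with the striatal covariate, 0 and 5 in 5xCHI + vehicle alone, and 0 and 0 in sham + vehicle alone. Of the 40 activity genes, 7, 8 and 0 were called higher in those arms alone, and 9 with either striatal alternative. Leaving out 1 library at a time gave 276 to 492 genes higher and 199 to 464 lower, 2 to 3 clock genes higher and 10 to 13 lower, 16 to 18 activity genes higher and 0 lower, and 0 genes for the interaction. RLE scaling left 777 of the 795 genes called, and DESeq2 called all 795 among 1059. Upper quartile scaling moved the split from 432 higher and 363 lower to 401 and 395.

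The sign changed for Rgs9 (-0.0735) with the striatal covariate. It changed for Nr1d1 in 5xCHI + SB alone (-0.127) and without the high striatal libraries (-0.0268). Fos was 0.339 with voom, 0.267 in 5xCHI + SB alone and 0.119 without the high striatal libraries. Npas4 was 0.254 with voom, 0.412 in 5xCHI + SB alone and 0.0147 with total count as covariate. In sham + vehicle alone Arc was -0.185 and Nr4a1 -0.689. Nr4a1 ranged from -0.0414 to 0.131 with 1 library left out, below 0 without F1 replicate 2 or 5 or F3 replicate 1 or 3. Enpp2 was 0.0284 and 0.12 in the 5xCHI + SB and 5xCHI + vehicle arms alone, 0.00357 without the high striatal libraries, and -0.35 to 0.0631 with 1 library left out, above 0 only without F3 replicate 11. Except for Rgs9, where the covariate is built from its list, the cause was not tested. The share of counts in abundant genes differed by 0.2435 percentage points for the 200 most abundant genes and by -0.061989 to 0.0027078 for 50 with 1 library left out. With 1 library left out the difference in TMM factor was -0.019124 to -0.01296, past the threshold without F3 replicate 12 (adjusted p = 0.0212), and that in GC slope -0.036147 to 0.0076546. The depth of the table leaves out genes of low count, and genes absent from it cannot be placed.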
